A study of Mus musculus with 18 samples.

Results

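Cyp26a1 is a cytochrome P450 that hydroxylates all-trans retinoic acid, the active form of vitamin A, and so starts its removal. The gene was followed in the livers of 18 mice through its probe on a focused cDNA array, 1 of the 289 gene probes of that array and 1 of the 188 that passed the filter on dim probes (signal over background on 6 or more arrays). It was chosen by measured values that were already known, namely its level in every mouse, its spread between mice and its relation to other genes. For this reason its levels, fold changes and correlations are given below as a description, without a test or a p-value. All mice were 16-week-old C57BL/6 females that had eaten a diet with 1% cholesterol for 1 week, so no group on an ordinary diet was part of the comparison. They received one oral dose of tap water (vehicle, n = 6), rosuvastatin at 20 mg/kg (n = 6) or atorvastatin at 40 mg/kg (n = 6), and livers were taken 24 h later. Both drugs are statins, which lower cholesterol by blocking its synthesis. Since their doses differed, drug and dose cannot be told apart.

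In liver cells retinoic acid acts through nuclear receptors, which are dimers of a retinoic acid receptor (RAR) with a retinoid X receptor (RXR). These dimers bind DNA sites made of repeated half-sites, called retinoic acid response elements, and Cyp26a1 is a classical target with such a site close to its start. Retinoic acid therefore raises the enzyme that clears it, and hepatic Cyp26a1 is widely used as a marker of retinoid status. Cyp26b1, a related enzyme, does the same work in many other tissues, whereas most of the vitamin A of the liver is stored in stellate cells.

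The promoter of the mouse gene is shown because it carries the site through which retinoic acid is known to act on Cyp26a1. The 250 bases before the RefSeq start of the gene lie at chr19:37697558-37697807 on the plus strand (GRCm38.p6), and the capitals mark the half-sites of a direct repeat.
Cyp26a1: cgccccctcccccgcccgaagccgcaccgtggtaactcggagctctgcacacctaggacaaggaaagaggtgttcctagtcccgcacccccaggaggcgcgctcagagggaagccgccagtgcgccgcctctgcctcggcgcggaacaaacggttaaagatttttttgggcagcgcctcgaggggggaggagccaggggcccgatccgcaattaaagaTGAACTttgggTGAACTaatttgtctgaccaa
The repeat runs from 32 to 16 bases before the start and reads as 2 copies of AGTTCA on the opposite strand, with 5 bases between the copies. The same array also held Rarb, the retinoic acid receptor beta, whose promoter window has a repeat of the same spacing 53 to 37 bases before its start (chromosome 14, minus strand), written below in the direction of the gene.
Rarb: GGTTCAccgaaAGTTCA
A direct repeat with a 5-base spacer, with each half-site ending in TCA and opening with AGT, AGG, GGT or GGG, was sought on both strands. It was present in 32 of 32851 RefSeq promoter windows (0.0974%), each reaching from 250 bases before to 50 after a start. Among the genes on the array that had a window, 2 of 208 held it, and these were Cyp26a1 and Rarb. A match describes letters in a window and is not a measurement of receptor binding. On chromosome 19 the gene next to Cyp26a1 is its relative Cyp26c1, which is not on the array.

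Each array compared 1 mouse, labelled with Cy3, with a common pool of all samples, labelled with Cy5, and a value is the log2 ratio of the mouse over this pool after normalisation. A value of 0 thus means the level of the pool, and a difference of 1 between 2 mice is a doubling of this ratio. The background correction added 50 units to both channels, which compresses the ratios of dim spots, and with them the folds given for Cyp26a1. With plain background subtraction its SD between mice was 0.493 with rosuvastatin and 0.917 with atorvastatin, against 0.326 and 0.708 as processed here. The median intensity of gene spots was 206 to 376 scanner units in the mouse channel and 267.5 to 659.5 in the reference channel, and 155 to 218 of the 289 gene probes were above background on an array. Atorvastatin 4 and vehicle 5 stood apart from the rest, with a median r over probes of -0.46 and 0.25 with the other arrays, so results on likeness are given with and without them. Hepatocyte genes were present, since Alb, Apoa1, Apoe, Cyp3a11, Cyp2e1 and Cyp8b1 were above background on all 18 arrays and Cyp7a1 on 11. Markers of other cells were almost not covered, only the fat cell genes Adipoq (above background on 9 arrays) and Lep (on 0) being present, so the share of stellate or immune cells in a sample could not be checked. In whole liver, fewer cells of a type and less RNA per cell cannot be told apart.

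Cyp26a1 differed widely from mouse to mouse, and its highest level was in an untreated animal. In the vehicle group the log2 ratios of mice 1 to 6 were -0.47, -0.61, -0.49, 2.79, -1.21 and 0.35. Both the highest and the lowest measured value of the 18 therefore belonged to vehicle mice, 15.9-fold apart. With rosuvastatin the values were -0.70, -0.10, -0.26, 0.08, -0.64 and -0.63, a measured range of 1.71-fold whose lowest value, that of mouse 1, was not above background. With atorvastatin they were -0.75, 0.19, -0.18, -0.85, -0.56 and 1.03, a measured range of 3.67-fold that was set at its upper end by mouse 6. Here the 2 lowest values, those of mice 1 and 4, were not above background, so that the ranges of both statin groups are lower limits and the order of the lowest mice is not settled. The 3 groups overlapped. By measured value, all 6 rosuvastatin and all 6 atorvastatin mice lay between the lowest and the highest vehicle mouse. Whether rosuvastatin 1 and atorvastatin 1 and 4 lay above vehicle 5 is not settled, as they were not above background. Of the 18 mice, 5 were above the level of the pool and 13 below it.

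**Figure D1:**
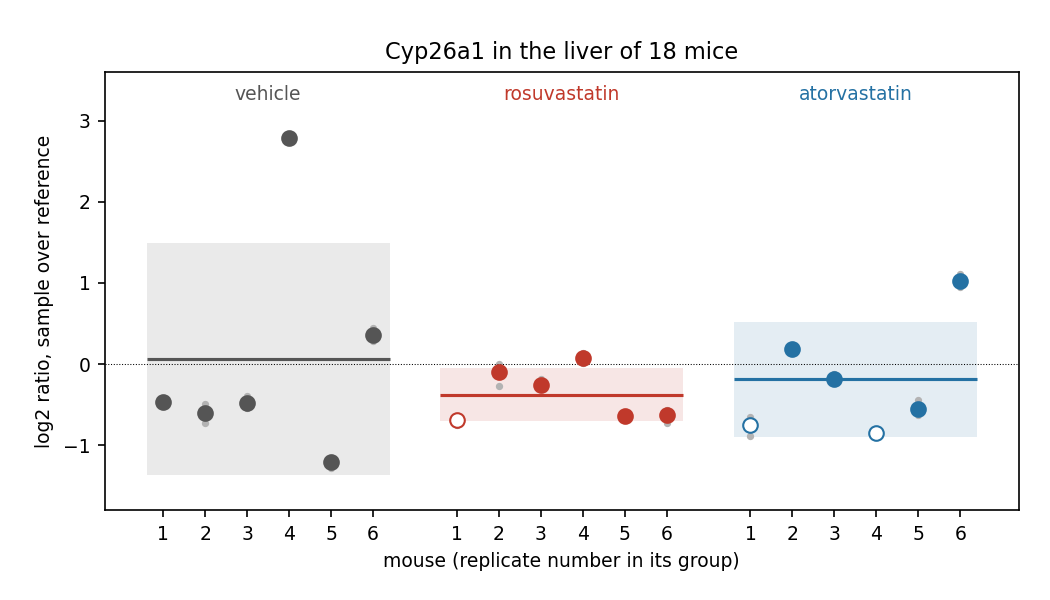
Cyp26a1 log2 ratio of mouse over pooled reference (vertical axis) in each of the 18 mice, by group. Large points are the means of 3 spots (small grey points), open where the probe was not above background on that array, lines and bands are the group mean and SD (n = 6); vehicle 4 at 2.79 lies 1.76 log2 units above the next mouse, atorvastatin 6.

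The group means ± SD were 0.06 ± 1.42 for vehicle, -0.38 ± 0.33 for rosuvastatin and -0.19 ± 0.71 for atorvastatin (n = 6 each). The medians were nearer to each other, at -0.48, -0.45 and -0.37. Vehicle 4 alone made up most of the vehicle spread. It exceeded the next vehicle mouse by 2.43 log2 units, and it was 3.39-fold above atorvastatin 6, the second highest of all mice. Without vehicle 4 the vehicle mean was -0.48 ± 0.56 (n = 5), below both statin means.

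The high value of vehicle 4 was present in the raw intensities and came from the mouse channel. Its 3 Cyp26a1 spots had 1674, 1462 and 1784 units, over a mean local background of 100. After subtraction of the background its mean was 1540 units, 13.7 times the median of the other mice. Atorvastatin 6 followed with 532 units and vehicle 6 with 403, while the remaining mice lay between 61.3 (rosuvastatin 1) and 226 units (rosuvastatin 2). The reference channel of the same spots varied far less, from 259 to 603 units, and vehicle 4 with 562 was inside this range. These units do not allow for the brightness of an array. With each channel scaled on its own, vehicle 4 had the highest reference value of all mice, 9.49 in log2 units. Atorvastatin 6 was next with 9.14. In the mouse channel scaled in this way they were at 11.17 and 9.15. No Cyp26a1 spot was saturated in either channel, the highest being 1784 units.

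**Figure D2:**
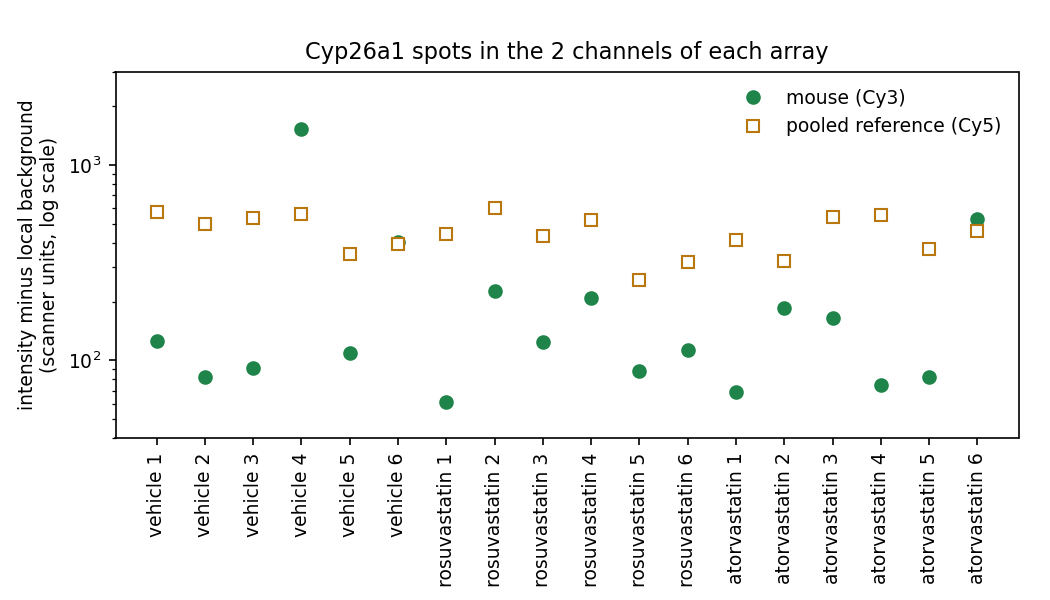
Cyp26a1 intensity minus local background (scanner units, log scale) in the mouse channel (filled circles) and in the pooled reference channel (open squares) of each array, as the mean of 3 spots. Reference values stay between 259 and 603, whereas the mouse channel reaches 1540 in vehicle 4 and 532 in atorvastatin 6.

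At the lower end the probe was dim. It was above background on 15 of 18 arrays, namely on all 6 of the vehicle group, 5 of 6 with rosuvastatin (not in mouse 1) and 4 of 6 with atorvastatin (not in mice 1 and 4), so the levels of these 3 mice have only an upper limit. The spots of an array nevertheless lay close together. Their pooled SD was 0.0787 log2 units (0.00976 to 0.144 on single arrays), against 0.938 between mice of a group. The 50 units added to both channels compress both SDs. The variance between mice was thus 142 times that between spots of an array, which share their RNA and labelling and measure printing and scanning error alone. In vehicle 2 the third spot read 93 units where the others read 188 and 165, yet the SD of its 3 ratios was only 0.117.

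The within-group SD of the 188 probes had a median of 0.197 and a 90th percentile of 0.483. Cyp26a1 with 0.938 had rank 5, after the serum amyloid genes Saa1 (2.00), Saa2 (1.98) and Saa3 (1.76), which encode acute phase proteins, and Fasn (0.96), the fatty acid synthase. By its range over all mice it had rank 4. When each channel was scaled on its own, the SD of Cyp26a1 over 18 arrays was 0.96 log2 units in the mouse channel, where it had rank 4, and 0.19 in the reference channel, where the median probe had 0.21. Its rank was between 3 and 6 in other ways of processing and 12 without vehicle 4, where its pooled SD was 0.553. Vehicle 4 was otherwise an ordinary array: it held the highest value of the 18 mice for only 4 of the 188 probes and the lowest for 3, whereas vehicle 5 held 30 and 26.

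**Figure D3:**
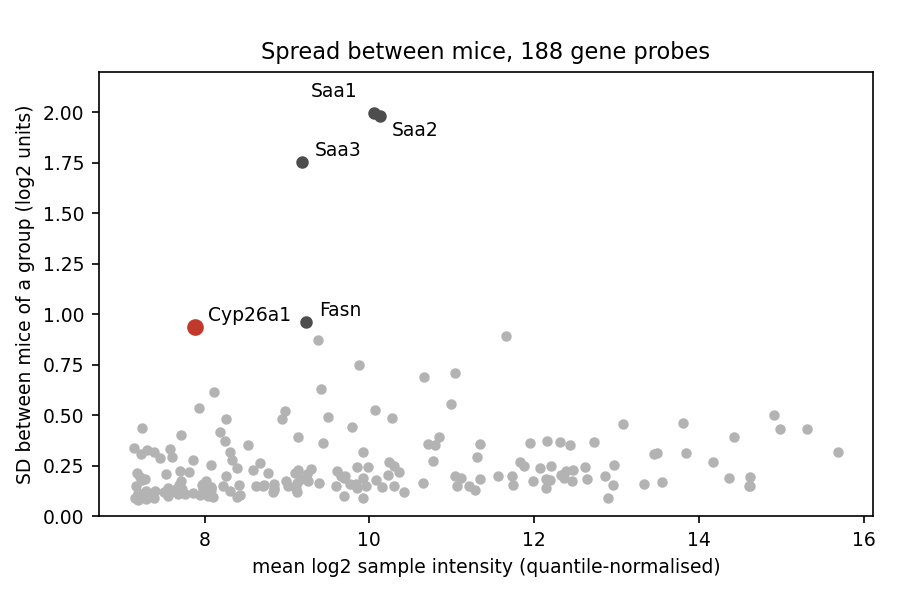
SD between mice of a group (log2 units) against the mean quantile-normalised log2 intensity of the mouse channel for 188 gene probes (points). Cyp26a1 (red, SD 0.938) is among the dimmer probes and lies near Fasn (0.96), below the serum amyloid genes Saa1, Saa2 and Saa3 (1.76 to 2.00).

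The comparison of each statin with vehicle asks whether a single dose shifts the transcript on the cholesterol diet. The log2 fold change of Cyp26a1 was -0.44 with rosuvastatin (SE 0.51, 95% confidence interval -1.50 to 0.63) and -0.25 with atorvastatin (SE 0.51, interval -1.31 to 0.81). These comparisons share the vehicle arrays and with them vehicle 4. The differences between the group medians were 0.03 and 0.11, on the other side of 0. Without vehicle 4 the fold changes also turned, to 0.11 and 0.29. Atorvastatin and rosuvastatin differed by 0.19 (SE 0.51, interval -0.88 to 1.25), a value that was -0.055 without atorvastatin 6. Its SE also reflects vehicle 4, since the fit used 1 spread shared by the 3 groups. The pooled SD was 0.938 with vehicle 4 and 0.553 without it, and the 2 statin groups had SDs of 0.33 and 0.71. Each of the 3 intervals extended beyond 1 log2 unit on one side.

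In size these fold changes ranked 15th, 31st and 48th of 188. By its SD between mice Cyp26a1 had rank 5, and the first fold change was 0.11 without vehicle 4. The whole array showed no call to set beside these fold changes. By limma with Benjamini-Hochberg adjustment 0 of 188 probes (0%) passed in each of the 3 contrasts, the smallest adjusted p being 0.578 for rosuvastatin against vehicle, 0.381 for atorvastatin against vehicle and 0.653 for atorvastatin against rosuvastatin. At an unadjusted p under 0.05 there were 12 (6.38%), 16 (8.51%) and 10 probes (5.32%).

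The files hold 1 possible sign of batches, the pixel area of the ring in which the local background was read, and no label says that arrays of the same area were handled together. It was 197 pixels on 11 arrays, and both mice with the highest Cyp26a1 and the mouse with the lowest measured value were among these. Within the 11 arrays the means were 0.33 ± 1.76 for vehicle (n = 4), -0.52 ± 0.28 for rosuvastatin (n = 4) and 0.22 ± 0.79 for atorvastatin (n = 3), so that rosuvastatin against vehicle was -0.85 and atorvastatin against rosuvastatin 0.74. In the smaller sets of equal ring area rosuvastatin was 0.88 above atorvastatin (1 mouse against 2, neither of these 2 above background), atorvastatin 0.28 above vehicle (1 against 1) and rosuvastatin 0.22 above vehicle (1 against 1). Rosuvastatin was thus below vehicle in the set of 11 arrays, which holds vehicle 4, and above it in the pair.

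Of 36 genes of retinoid metabolism and signalling listed for this comparison, 13 were on the array. The enzymes and carriers that supply retinoic acid were not among them. Besides Cyp26a1, 5 were measured above background on at least 6 arrays: the receptors Rara (array name Nr1b1, 11 arrays), Rxra (Nr2b1, 17 arrays) and Rxrb (Nr2b2, 18 arrays), the orphan receptor Rora (Nr1f1, 16 arrays), and Nr2f2 (18 arrays), known as COUP-TFII, which can occupy the same repeats as RAR and RXR. The other 7 were too dim to be used. Among these were Cyp26b1, Rarg (Nr1b3) and Rxrg (Nr2b3), each above background on 0 arrays, and Rarb (Nr1b2) on 2, both of them vehicle arrays. Rorb was above background on 0 arrays and Nr2f1 on 1.

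None of these receptors showed the range of Cyp26a1. Rxra ran from -0.56 (vehicle 6) to 0.36 (atorvastatin 4). Rara, which had the smallest range of the RAR and RXR genes measured, ran from -0.21 (vehicle 6) to 0.22 (atorvastatin 3). In vehicle 4, where Cyp26a1 was at 2.79, Rara was at 0.06, Rxra at -0.17, Rxrb at 0.07, Rora at -0.01 and Nr2f2 at 0.00, all inside the ranges of the other vehicle mice. For Rxra the group means ± SD were -0.17 ± 0.31 with vehicle, -0.13 ± 0.12 with rosuvastatin and 0.03 ± 0.20 with atorvastatin (n = 6 each). Its log2 fold change of 0.21 for atorvastatin against vehicle (SE 0.13, interval -0.06 to 0.47, adjusted p = 0.593 in limma) was the largest among the 5 genes, and 0 of 5 passed in any contrast. The medians of the 5 fold changes were 0.03, 0.06 and 0.06 in the 3 contrasts, where those of all probes were -0.01, -0.01 and 0.01.

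To find genes with a similar pattern, deviations from the group means were correlated over the 18 mice between Cyp26a1 and each of the other 187 probes. The arrays shared the reference pool and the normalisation, and the r values are a description. They ran from -0.67 to 0.57 with a median of 0.019, and 2 probes were above 0.5 and 5 below -0.5. No probe followed Cyp26a1 closely. Its highest absolute r of 0.668 ranked 169th among the highest absolute r of the 188 probes, whose median was 0.809.

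The genes most like it in pattern were Mapk9 (array name Jnk2), a stress-activated kinase, with an r of 0.57 (rho 0.47), Cyp4b1, a P450 of xenobiotic metabolism, with 0.55 (rho 0.29), Abcb4, the phospholipid exporter of bile, with 0.48 (rho 0.39), Adipor2, an adiponectin receptor, with 0.46 (rho 0.43), and Cyp27a1, an enzyme of bile acid synthesis, with 0.45 (rho 0.46). Their own changes were small, as Mapk9 stayed between -0.21 and 0.12 over all mice. Cyp4b1 and Abcb4 owed their place to vehicle 4, where they were at 0.46 and 0.43. Without that mouse their r was 0.16 and 0.13, and that of Mapk9 was 0.45, of Adipor2 0.51 and of Cyp27a1 0.36. Without vehicle 4 and atorvastatin 6, the 2 mice farthest from the Cyp26a1 median, the 5 values were 0.52 for Mapk9, 0.02 for Cyp4b1, 0.30 for Abcb4, 0.53 for Adipor2 and 0.51 for Cyp27a1. Without atorvastatin 4 and vehicle 5 they were 0.55 for Mapk9, 0.55 for Cyp4b1, 0.43 for Abcb4, 0.28 for Adipor2 and 0.30 for Cyp27a1. Leaving out vehicle 5 alone brought Adipor2 to 0.29. In the deposited table Mapk9 had an r of 0.25. When only the mouse channel was used, Cyp4b1, Abcb4 and Cyp27a1 changed sign, to -0.19, -0.22 and -0.35.

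At the other end stood Slc2a4 (GLUT4), a glucose transporter best known from muscle and fat, with an r of -0.67 (rho -0.69). Vehicle 4 was its lowest mouse at -0.34, with the other vehicle mice between -0.08 and -0.02, and atorvastatin 4 its highest at 0.31. It was followed by Apcs, the serum amyloid P component, with -0.55 (rho -0.57), Slc2a1 (GLUT1), the glucose transporter of most cells, with -0.52 (rho -0.73), the transcription factor Stat3, which carries the interleukin 6 signal in hepatocytes, with -0.51 (rho -0.54), and Icam1, an adhesion molecule of inflamed tissue, with -0.51 (rho -0.66). All 5 stayed below 0 without the 2 farthest mice, at -0.46 for Slc2a4, -0.31 for Apcs, -0.78 for Slc2a1, -0.71 for Stat3 and -0.55 for Icam1. They also did so without atorvastatin 4 and vehicle 5, at -0.76, -0.60, -0.36, -0.31 and -0.48 in the same order. Within the 11 arrays of equal ring area they were at -0.75, -0.90, -0.50, -0.65 and -0.51. Icam1 was dim and above background on only 10 of 18 arrays, 3 with vehicle, 5 with rosuvastatin and 2 with atorvastatin. Its r therefore rests in part on values near the floor. The sign of Icam1 and Slc2a1 depended on the scaling of the arrays, since Icam1 was above 0 with median centring, with a shift on the spike-ins and in the deposited table, and Slc2a1 with the spike-in shift. Slc2a4 was at -0.01 with that shift and at -0.13 in the deposited table, and Stat3 was at -0.01 with the mouse channel alone.

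**Figure D4:**
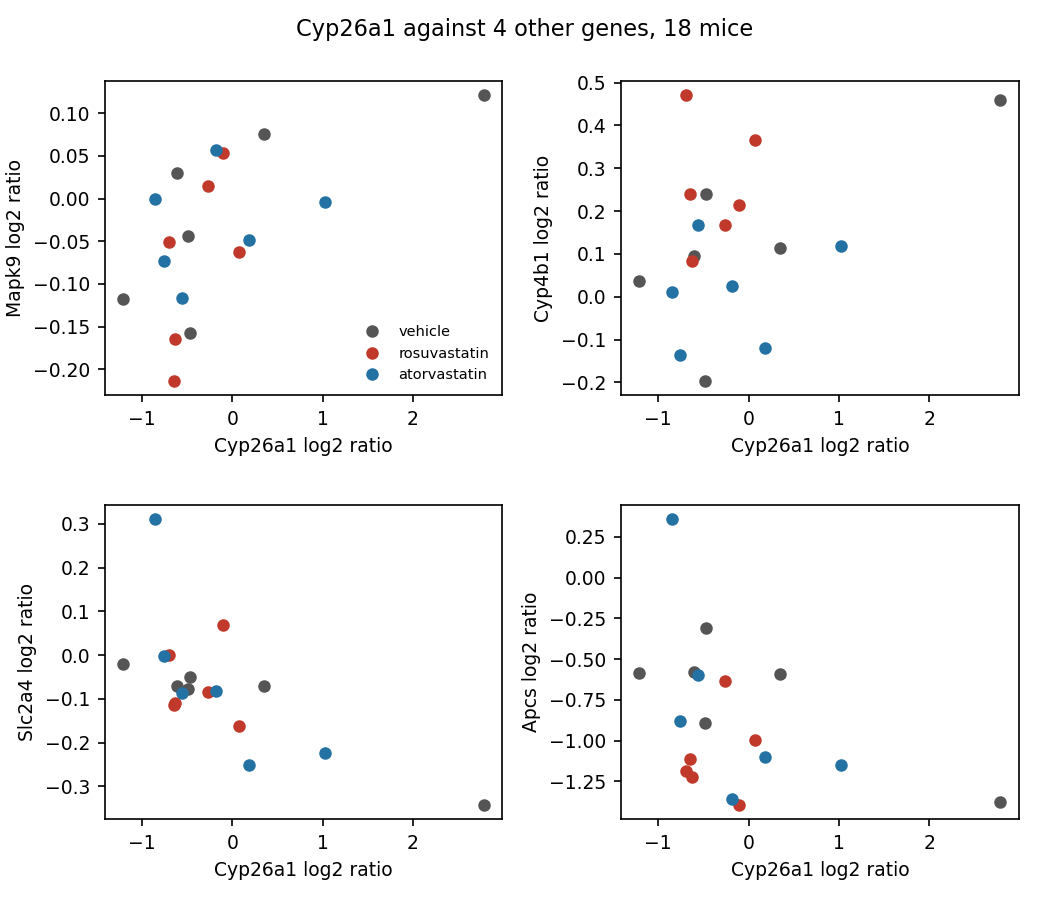
Log2 ratios of Mapk9, Cyp4b1, Slc2a4 and Apcs (vertical axes, each with its own scale) against that of Cyp26a1 (horizontal axes) in 18 mice, coloured by group. The single point at the far right of each panel is vehicle 4 (Cyp26a1 2.79), where Cyp4b1 is at 0.46 and Slc2a4 at -0.34.

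Apcs belonged to a list of 11 acute phase genes, liver genes that change with inflammation, and all 11 had an r below 0 with Cyp26a1. Their median r was -0.40, and of all 187 probes 87 were below 0, with a median of 0.019. After Apcs came Fgb, a fibrinogen chain, with -0.44, the complement gene C3 with -0.41, Saa1 and Saa3 with -0.41 each, Saa2 with -0.40 and Orm1, the orosomucoid, with -0.39. C4bp and Saa4 were nearest to 0, at -0.22 each. Saa1 and Saa2 are near-identical copies whose probes can share signal, so their values are not independent. The reference channel was saturated for Orm1 (11 arrays), C3 (10), Saa4 (8), Saa2 (5) and Saa1 (4), which compresses their ratios.

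Much of this rested on a few mice. Saa1 was highest in atorvastatin 4 (1.65) and vehicle 5 (-1.44), and these were the mice with the lowest measured Cyp26a1 of their groups, at -0.85 and -1.21. They are also the arrays that stood apart. At the opposite corner, vehicle 4, vehicle 6 and atorvastatin 6, the mice with the highest Cyp26a1, had Saa1 at -4.91, -5.39 and -5.66. Low Saa1 did not go with high Cyp26a1 throughout, since atorvastatin 1 and rosuvastatin 1 and 5 had Saa1 at -5.74, -5.46 and -5.65 with Cyp26a1 at -0.75, -0.70 and -0.64. Without atorvastatin 4 and vehicle 5 the 11 genes were still below 0, with a smaller median of -0.24, and without vehicle 4 and atorvastatin 6 they were so with a median of -0.32. Within the 11 arrays of equal ring area the median was -0.52, again with 11 of 11 below 0. In single groups (n = 6) 10 of 11 were below 0 with vehicle (median r -0.53) and 10 of 11 with atorvastatin (-0.52), but only 3 of 11 with rosuvastatin (0.19), where Cyp26a1 varied least. Of all 187 probes, 91 were below 0 with vehicle, 100 with atorvastatin and 105 with rosuvastatin. The difference between the groups was not tested. With the mouse channel alone, with the spike-in shift and in the deposited table, 9 of 11 were below 0, and the share of all probes below 0 was 49.7%, 18.7% and 31.4% there.

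**Figure D5:**
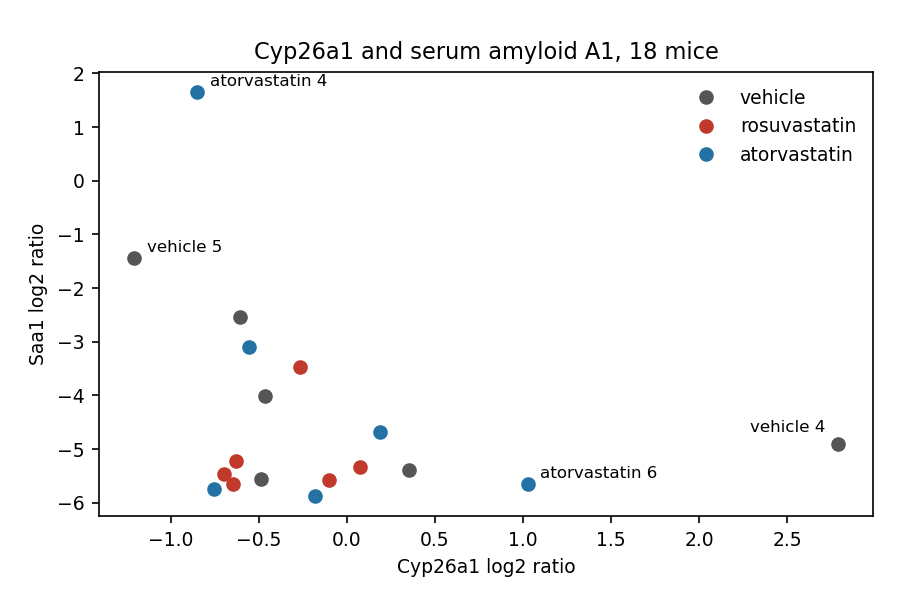
Saa1 against Cyp26a1 (log2 ratios of mouse over pooled reference) in 18 mice, coloured by group. Atorvastatin 4 (Saa1 1.65) and vehicle 5 (-1.44) are high in Saa1 and low in Cyp26a1, vehicle 4 is the reverse, and several mice are low in both.

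In other gene groups the signs of r moved with the mice included. All 16 measured cholesterol synthesis genes, the pathway that statins block, had an r above 0 with Cyp26a1, yet their median was only 0.09, and 14 of 16 were below 0 without atorvastatin 4 and vehicle 5, but only 3 of 16 (median 0.23) without vehicle 4 and atorvastatin 6. By group, 14 of 16 were above 0 with vehicle, 15 of 16 with atorvastatin and 0 of 16 with rosuvastatin (median r -0.63, where the median of all probes was -0.11). Of 16 drug-metabolising P450s, 15 were above 0 (median 0.12), but 11 of 16 were below 0 without vehicle 4 and atorvastatin 6 and 7 of 16 without atorvastatin 4 and vehicle 5. The bile acid P450s were above 0 in 4 of 5 (median 0.26), in 3 of 5 without atorvastatin 4 and vehicle 5, and in 4 of 5 (median 0.43) without vehicle 4 and atorvastatin 6. The 5 receptor genes of the retinoid list named above all had an r below 0. Nr2f2 was at -0.48, Rxra at -0.28, Rara at -0.12, Rora at -0.09 and Rxrb at -0.07. Below 0 were 1 of 5 without atorvastatin 4 and vehicle 5 and 4 of 5 (median -0.43) without vehicle 4 and atorvastatin 6. A further list of 11 measured genes held the RXRs (Rxra and Rxrb again), their partner receptors, the receptors Hnf4a and Nr5a2, and cofactors. Of these, 7 were below 0, as were 4 of 11 without atorvastatin 4 and vehicle 5 and 9 of 11 without vehicle 4 and atorvastatin 6. Of all 187 probes, 109 and 100 were below 0 without these pairs of mice.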

How the data were processed

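Liver RNA of 18 mice was hybridised to Steroltalk v2 cDNA arrays, 1 mouse (Cy3) against a pool of all samples (Cy5) on each, without dye swaps, so a dye effect is common to all arrays. The deposited per-array files hold, per the file headers, the median intensity of each spot and of its local background on a linear scale without correction. A table of processed log2 ratios deposited by the authors served as an alternative. It holds 16 values for Cyp26a1 (atorvastatin 1 and 4 are empty). How that table was normalised is not given in the sources used here, nor are the scanner and image software. Its column medians ran from -0.32 to 0.564, and its Cyp26a1 values had an r of 0.977 with the ratios computed here over 16 mice, although single values near 0 can differ in sign.

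With limma 3.58.1 (R 4.3.3, statmod 1.5.0) both channels were background-corrected by normexp (offset 50), and log2 ratios of mouse over reference were normalised by loess within arrays, with control spots at weight 0. The 3 spots of a probe were averaged. A probe was above background on an array where at least 50% of its spots passed the local background plus 2 background SDs. Probes above background on at least 6 of 18 arrays were kept (188 of 289, with 144 on all 18). One fit (lmFit, eBayes) over all 18 arrays without a block gave 3 two-sided contrasts, with Benjamini-Hochberg adjustment over 188 probes at 0.05 and 95% confidence intervals. The number of arrays limits the precision. The fit was tested on simulated data. Replicates are single mice.

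Of 289 array names, 272 were matched to RefSeq symbols, 212 of them directly. Promoter sequences are from RefSeq (GRCm38.p6). The files name no genome build. Genes were named as Cyp26a1, the 5 highest and 5 lowest in r with it, and the retinoid list. One gene of that list is not reported here, but it remains in the counts. Other lists are given as counts, with Saa1, Saa2 and Saa3 for the arrays that stand apart. Fasn, C3, C4bp, Fgb, Orm1 and Saa4 were named after their values were seen. The gene and the lists were chosen with earlier results of these data known. Alternatives covered background, scaling, spots, filter, weights, blocks, ring area and leaving out mice.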

Additional observations from a re-analysis of the deposited data

Results flagged for a closer look

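In groups of 6 mice, single values set far from the others were sought in 19 genes, namely Cyp26a1 and genes described with it. The rule took the gap to the next mouse as a share of the range of the group. Of 57 groups, 9 held such a value. Chance alone marks about 1 in 20 groups of normally distributed values. The genes were chosen for their relation to Cyp26a1 or for the arrays that stand apart. The count of 9 is therefore not set against that rate. The rule was not run on the other probes of the array. The count thus has no share over all probes beside it and is not a result about these genes. Cyp26a1 itself was not marked in any group, but it was chosen by these same values, so its shares are a description only. Its largest share, that of vehicle 4, was 0.609, and the smallest share among the 9 was 0.631. The range used for vehicle 4 was also widened by vehicle 5 at -1.21. The rule therefore does not decide whether vehicle 4 stands apart in Cyp26a1. Slc2a4 was low in vehicle 4, at -0.34 with the next mouse at -0.08. Adipor2 was low in vehicle 5, at -0.43 with the next mouse at 0.03. Stat3 was high in atorvastatin 4, at 0.41 with the next mouse at -0.05.

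The remaining 6 were serum amyloid genes in 2 mice. In atorvastatin 4, Saa1 was at 1.65, Saa2 at 1.62 and Saa3 at 1.88, with the next mouse of the group at -3.10, -3.11 and -2.65. In rosuvastatin 3, Saa1 was at -3.47, Saa2 at -3.52 and Saa3 at -3.03, with the next mouse at -5.22, -5.16 and -4.39. Cyp26a1 was at -0.85 in atorvastatin 4, the lowest measured value of its group, and at -0.26 in rosuvastatin 3, in the middle of its group.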

How the results depend on the processing

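Leaving out 1 mouse at a time moved the Cyp26a1 log2 fold change from -0.69 to 0.11 for rosuvastatin against vehicle, from -0.50 to 0.29 for atorvastatin against vehicle and from -0.055 to 0.32 for atorvastatin against rosuvastatin, with values above 0 in the first 2 only without vehicle 4. Its pooled SD ran from 0.553 (without vehicle 4) to 0.971. Under the other settings the 3 fold changes ran from -0.85 to -0.38, from -0.49 to 0.02 (the deposited table, the one change of sign) and from 0.10 to 0.74, and the pooled SD from 0.839 to 1.16. With probes above background on all arrays Cyp26a1 is left out. With the replicate number as a replicate block, 2 probes passed for atorvastatin against vehicle, and no other setting or contrast had a call. It is not known whether the numbers pair the mice. Of same-number pairs, 10 of 18 correlated above 0.1 (-0.603 to 0.613), and 5 of 18 arrays were most like one of their own number. No rate expected by chance was worked out, so these counts do not decide it. Probes at an unadjusted p under 0.05 ranged from 2 to 29, 0 to 31 and 0 to 16. The r of Icam1 changed sign to 0.12 with median centring, 0.36 with the spike-in shift and 0.25 in the deposited table, and that of Slc2a1 to 0.18 with the spike-in shift. With the mouse channel alone Cyp4b1 was at -0.19, Abcb4 at -0.22 and Cyp27a1 at -0.35. The causes were not tested. Cyp26a1 was dim, and in the 3 mice where it was not above background its level has only an upper bound.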
